A study of Mus musculus with 4 samples.

Results

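The genes described here carry lipids into, within and out of cells: Apoe, Abca1, Abcg1, Scarb1, Apob, Mttp, Plin2, Lpl, Cd36 and Fabp5. They were taken by symbol, 10 of the 32285 genes counted, and all 10 were found. Droplet single-cell RNA sequencing (10x Genomics) had been run on cells of the mouse retinal pigment epithelium (RPE), the pigmented layer behind the photoreceptors, and of the choroid, the vascular layer beneath it. The 4 libraries, 1 per group, came from Vldlr-/- mice aged 1 month, wild-type (WT) mice aged 1 month, Vldlr-/- mice aged 2 months and WT mice aged 2 months. Vldlr encodes the very low density lipoprotein receptor, and -/- denotes loss of both copies. The labels name no treatment. The number of animals pooled per library, their sex, the strain and the deleted part of Vldlr are not given in the sources used here.

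RPE cells take up lipid from both faces. They engulf the shed tips of photoreceptor outer segments at one face, and take lipoproteins from the choroidal blood at the other. Lipid leaves again as sterol handed to apolipoprotein E by ABC transporters, or, as known from human RPE, in lipoproteins built on apolipoprotein B. What is neither burned nor exported is stored in droplets coated by perilipins. Macrophages use much the same uptake, storage and efflux genes.

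Levels are unique molecular identifiers (UMIs, counted RNA molecules) of a gene per 1000000 UMIs (CPM) summed over a cell class of a library. Brackets give 95% intervals, exact Poisson for a level and exact conditional binomial for a log2 ratio of Vldlr-/- over WT. Shares of barcodes carry exact Clopper-Pearson intervals. All of these cover counting error only, and with 1 library per group no difference has a replicate check, so no test was run. A gene was compared between genotypes where the libraries of an age held at least 30 of its UMIs together and each had at least 30 barcodes of the class. It was called 2-fold apart where the log2 ratio reached 1 in size. Levels of different genes were not compared with each other.

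The libraries held 12022513 (Vldlr-/-) and 11194301 (WT) UMIs at 1 month, and 16292472 (Vldlr-/-) and 23070271 (WT) at 2 months. The files name one software version for both 1-month libraries and another for both 2-month libraries, so age and counting cannot be told apart and the ages were not compared. Among all barcodes before filtering, 1 sequence occurred in more than 1 library, and 6529 barcodes were analysed. RPE-like cells numbered 148 (Vldlr-/-) and 216 (WT) at 1 month, with median depths of 1727 (Vldlr-/-) and 1968.5 (WT) UMIs. At 2 months they numbered 588 (Vldlr-/-) and 1349 (WT), with medians of 9515.5 (Vldlr-/-) and 8081 (WT) UMIs. Of 10 RPE markers, including Rpe65 and Ttr, 9 or 10 were detected in each library. They summed to 175475 (Vldlr-/-) and 186292 (WT) CPM of RPE-like UMIs at 1 month, and 104849 (Vldlr-/-) and 111408 (WT) CPM at 2 months. Among RPE-like UMIs, Vldlr itself had 12.4 CPM in the Vldlr-/- library and 140 CPM in WT at 1 month, then 27.3 CPM in Vldlr-/- and 182 CPM in WT at 2 months. Rod-like cells at 1 month held 203 CPM of Vldlr in the library labelled Vldlr-/- and 320 CPM in WT, and since the deleted part is not given, these reads do not check the labels.

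The stretches upstream of 3 members are shown because nuclear receptors of sterols and fatty acids are known to act through direct repeats of the element AGGTCA, and because theirs were the member windows that held a match. The RefSeq table used here (GRCm38.p6) held windows for 6 of the 10 members. Capitals mark 2 copies of AGGTCA with 1 base between them (at most 2 mismatches), 2 copies with 4 bases between them (at most 3 mismatches), or CACGTG without mismatch, searched on both strands in the 250 bases before the transcript start.
Plin2: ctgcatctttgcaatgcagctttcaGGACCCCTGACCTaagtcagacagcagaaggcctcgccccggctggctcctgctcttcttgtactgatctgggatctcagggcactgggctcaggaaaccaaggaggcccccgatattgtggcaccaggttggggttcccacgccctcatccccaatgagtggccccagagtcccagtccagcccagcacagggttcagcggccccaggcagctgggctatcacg
Abca1: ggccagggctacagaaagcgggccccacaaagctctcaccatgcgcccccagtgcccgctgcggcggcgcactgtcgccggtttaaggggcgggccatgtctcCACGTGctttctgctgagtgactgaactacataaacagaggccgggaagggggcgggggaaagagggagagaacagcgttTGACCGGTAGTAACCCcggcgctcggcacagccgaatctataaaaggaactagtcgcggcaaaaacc
Cd36: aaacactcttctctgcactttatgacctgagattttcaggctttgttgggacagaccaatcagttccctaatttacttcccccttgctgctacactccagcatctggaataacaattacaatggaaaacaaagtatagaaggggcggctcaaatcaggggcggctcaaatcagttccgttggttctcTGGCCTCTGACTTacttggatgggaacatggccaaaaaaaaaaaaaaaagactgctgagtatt
The Plin2 stretch (chr4:86670060-86670309, minus strand) held a repeat with 1 base between its copies, at -225 to -213 from the start. The Abca1 stretch (chr4:53159896-53160145, minus strand) held CACGTG at -147 to -142 and a repeat with 4 bases between its copies at -67 to -52. The Cd36 stretch (chr5:17835897-17836146, minus strand) held a repeat with 1 base between its copies at -63 to -51. Of all 32851 windows, 3.24% held the repeat spaced by 1 base, 18.5% the repeat spaced by 4 and 6.02% CACGTG. No match lay in the windows of Apoe, Apob or Mttp. These are matches of letters and say nothing of binding.

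**Figure D1:**
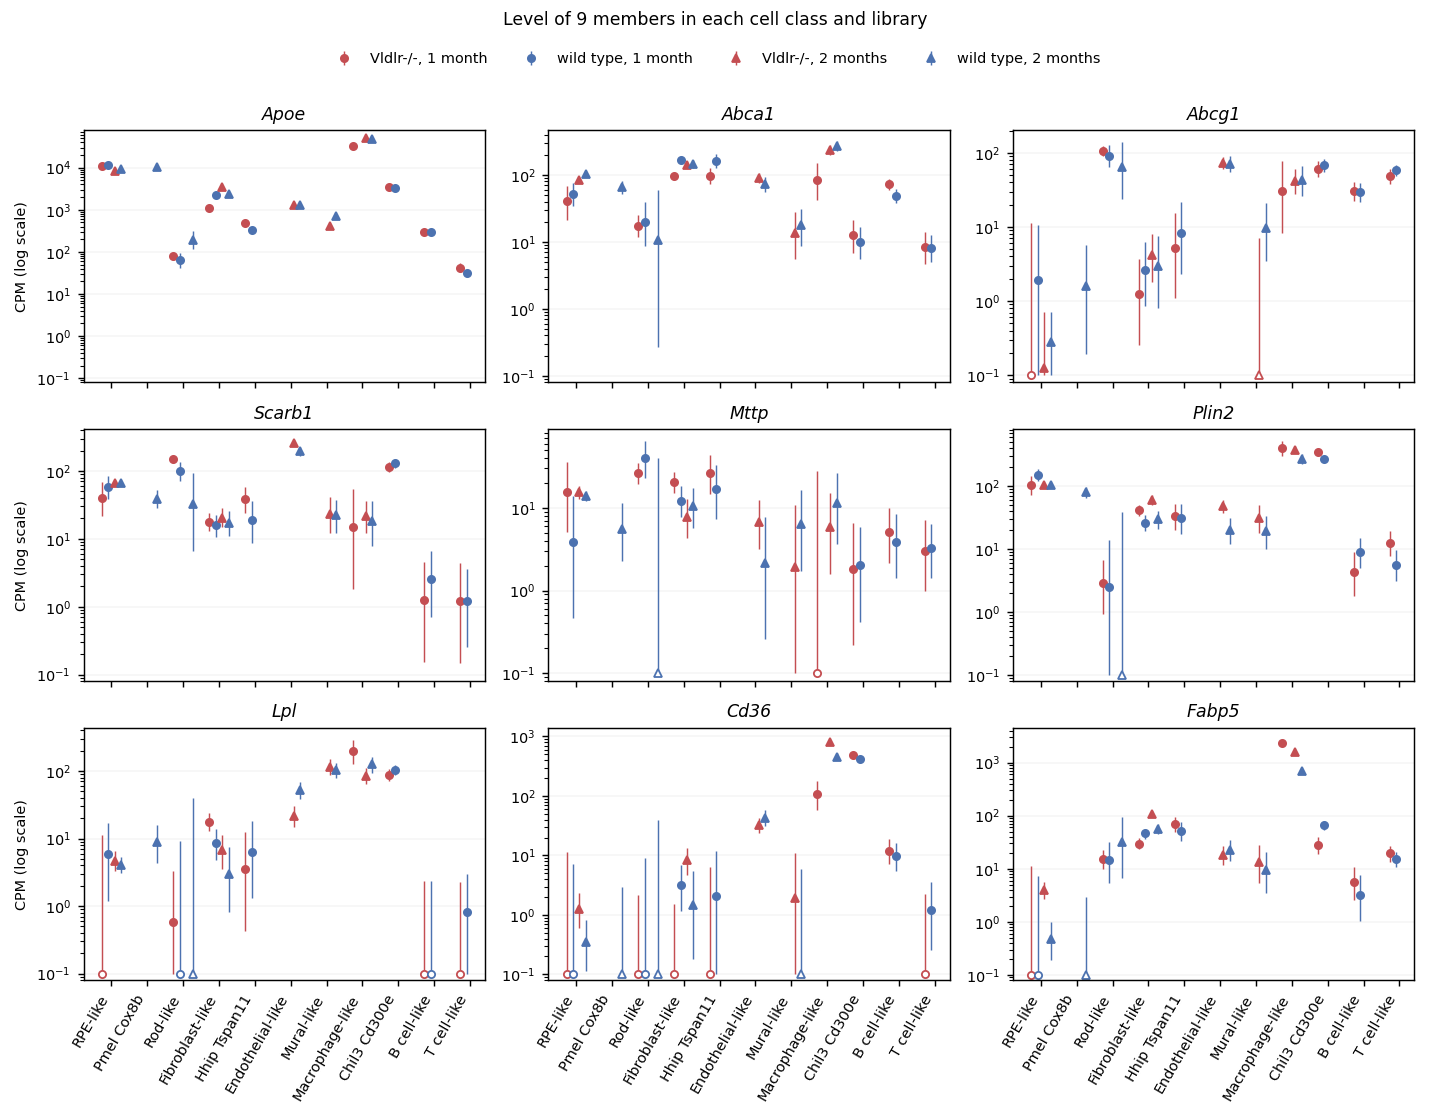
Each panel plots the CPM of 1 member (vertical, log scale) in 11 cell classes for the libraries with at least 30 barcodes of that class, Vldlr-/- left of WT at each age. Bars are 95% Poisson intervals, open symbols mark 0 UMIs, and values or bars under 0.1 CPM are drawn at 0.1. Apoe stood between 8431 and 11509 CPM in RPE-like cells of all 4 libraries, while Abcg1 and Cd36 were near 0 there.

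In RPE-like cells at 1 month 0 of the 4 members with enough UMIs were 2-fold apart, against 6.07% of the 3264 genes compared. All 4 were lower in Vldlr-/-, with log2 ratios of -0.06 for Apoe, -0.35 for Abca1, -0.50 for Scarb1 and -0.52 for Plin2, and a median of -0.42 against 0.01 over all genes. The counting interval of each of these ratios spans 0. At 2 months 1 of 7 was 2-fold apart, namely Fabp5, against 4.1% of the 11775 genes compared. The other 6 members at 2 months had log2 ratios between -0.30 and 0.20, and the median of the 7 was 0.04 against 0.07 over all genes. In the 11 comparisons of other cell classes 8 of 58 member ratios were 2-fold apart, against 2.32% to 7.47% of all genes in each, on Plin2 in 3 classes, Lpl and Fabp5 in 2 classes each and Apoe in 1.

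**Figure D2:**
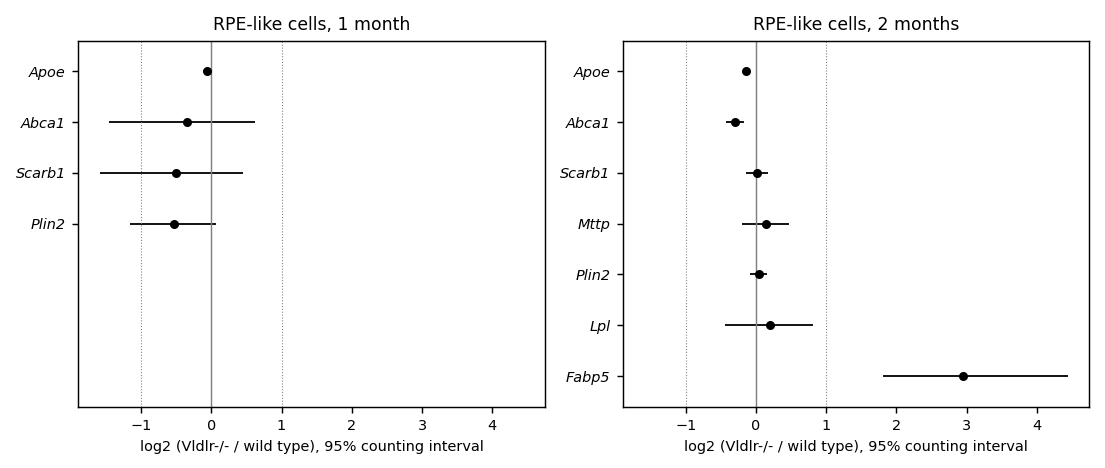
Log2 ratio of Vldlr-/- over WT in RPE-like cells (horizontal) for the members with at least 30 UMIs, at 1 month (left) and 2 months (right). Points are the ratios, bars the 95% counting intervals and dotted lines mark 2-fold, which Fabp5 at 2 months, at 2.94, passed.

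Apoe (ENSMUSG00000002985, GRCm38 chromosome 7, 19696109 to 19699188, minus strand) encodes apolipoprotein E, the secreted protein that accepts effluxed sterol and is a ligand of the VLDL receptor. RPE-like cells held 11065 CPM (10704 to 11434) in Vldlr-/- and 11509 CPM (11218 to 11806) in WT at 1 month. At 2 months they held 8431 CPM (8367 to 8495) in Vldlr-/- and 9316 CPM (9266 to 9366) in WT. The 1-month intervals overlap and those at 2 months do not. The log2 ratio was -0.06 (-0.12 to 0.00) at 1 month and -0.14 (-0.16 to -0.13) at 2 months. At 2 months 574 of 588 Vldlr-/- and 1336 of 1349 WT barcodes of the class had an Apoe UMI.

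The small 2-month difference was not shared by all RPE-like clusters. The shallow cluster 0 had 4827 CPM in Vldlr-/- (123 barcodes, median 1465 UMIs) and 10637 CPM in WT (164 barcodes, median 2073.5 UMIs), a log2 ratio of -1.14. Cluster 1 had a ratio of -0.36, cluster 2 of -0.06 and cluster 5 of -0.30. Cluster 10, the deepest of them, went the other way with 8787 CPM in Vldlr-/- and 7270 CPM in WT, a ratio of 0.27. The split by Malat1, a nuclear RNA, had the same shape. RPE-like barcodes with at least 1000 CPM of Malat1 held 8509 CPM of Apoe in Vldlr-/- and 7479 CPM in WT, while those under it held 8361 CPM in Vldlr-/- and 9845 CPM in WT. Barcodes at or over the limit made up 28.6% of the class in Vldlr-/- and 12.1% in WT, and their part in the Apoe difference was not tested. At 1 month cluster 0 held 11515 CPM in Vldlr-/- and 12218 CPM in WT.

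Macrophage-like cells had the highest Apoe level of any class with 30 barcodes, 51742 CPM (51205 to 52283) in Vldlr-/- and 47887 CPM (47241 to 48539) in WT at 2 months, a log2 ratio of 0.11. At 1 month the 34 Vldlr-/- barcodes held 32186 CPM, and the 29 WT barcodes, too few to compare, 41776 CPM. The cluster led by Npvf and Kcnj3 came next in the 2-month WT library with 14154 CPM. It was left unnamed, with 6 of 7 Müller glia markers enriched, a list that holds Apoe itself. The pigmented cluster led by Pmel and Cox8b had 10369 CPM there, above the RPE-like level. The cluster led by Chil3 and Cd300e, in which 6 of 10 macrophage markers were enriched, held 3419 CPM in Vldlr-/- and 3215 CPM in WT at 1 month. Endothelial-like cells had 1267 CPM in Vldlr-/- and 1320 CPM in WT at 2 months, a ratio of -0.06. The lowest levels were near what free RNA, RNA outside cells that enters every droplet, would give. Rod-like cells had 78.5 CPM in Vldlr-/- and 64.6 CPM in WT at 1 month, beside free-RNA estimates of 103 CPM in Vldlr-/- and 51.5 CPM in WT. T cell-like cells had 42.4 CPM in Vldlr-/- and 31.9 CPM in WT, beside 56.3 CPM in Vldlr-/- and 30.4 CPM in WT. Mural-like cells at 2 months were below their estimates of 611 CPM in Vldlr-/- and 865 CPM in WT, with 408 CPM in Vldlr-/- and 717 CPM in WT, a log2 ratio of -0.81 (-1.06 to -0.57). A single barcode held 121 of the 209 Vldlr-/- UMIs, and a single WT barcode 242 of 447. Over 11 alternatives in the processing the mural-like ratio ran from -1.93 to 0.25.

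In fibroblast-like cells Apoe differed in opposite directions at the 2 ages. At 1 month they held 1077 CPM (1036 to 1119) in Vldlr-/- (351 barcodes) and 2197 CPM (2130 to 2265) in WT (239 barcodes), a log2 ratio of -1.03 (-1.10 to -0.96), against 3.69% of genes 2-fold apart. At 2 months they held 3517 CPM (3434 to 3601) in Vldlr-/- (157 barcodes) and 2328 CPM (2247 to 2411) in WT (118 barcodes), a ratio of 0.59 (0.53 to 0.66). The summed level of 10 macrophage markers in these barcodes moved in the same directions, 45.7 CPM in Vldlr-/- and 113 CPM in WT at 1 month, and 595 CPM in Vldlr-/- and 332 CPM in WT at 2 months. Without the barcodes that held any of those markers' UMIs, the 2-month levels were 2049 CPM in Vldlr-/- (112 barcodes) and 2074 CPM in WT (95 barcodes), a ratio of -0.02. The same restriction left 1118 CPM in Vldlr-/- (259 barcodes) and 1988 CPM in WT (161 barcodes) at 1 month, a ratio of -0.83. The RPE markers summed alike in fibroblast-like cells at 1 month, at 243 CPM in Vldlr-/- and 244 CPM in WT. At 2 months they summed to 1777 CPM in Vldlr-/- and 1623 CPM in WT. Of the 2-month Apoe UMIs, 2614 of 6818 in Vldlr-/- and 799 of 3132 in WT lay in 5 barcodes of each library. Within clusters, the 1-month ratio was -0.86 in cluster 4, so the 2-fold call did not hold inside it. Cluster 23, with 28 WT barcodes, too few to compare, had a ratio of -0.60. The 2-month ratio in cluster 8 was 0.68.

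**Figure D3:**
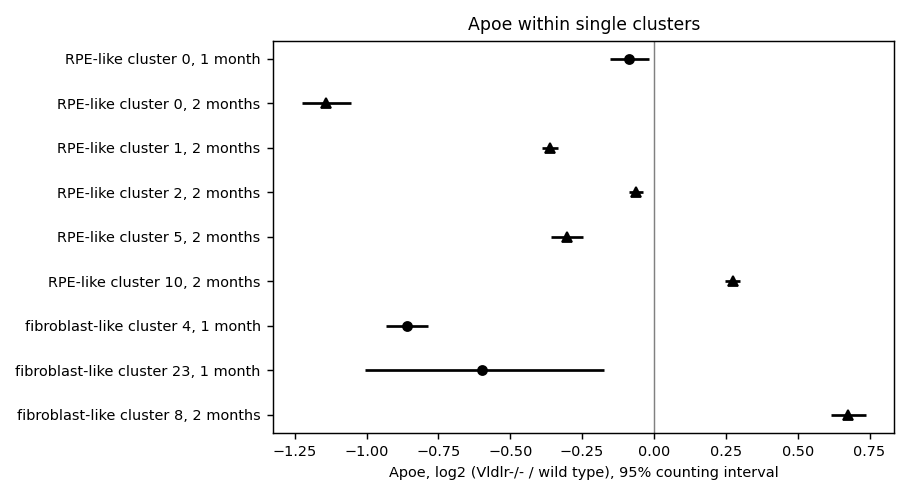
Log2 ratio of Apoe, Vldlr-/- over WT (horizontal), within single clusters of RPE-like and fibroblast-like cells, circles at 1 month and triangles at 2 months. Bars are 95% counting intervals. Ratios run from -1.14 in RPE-like cluster 0 to 0.68 in fibroblast-like cluster 8, both at 2 months.

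Abca1 (ENSMUSG00000015243, chromosome 4, 53030787 to 53159895, minus strand) encodes the transporter that loads cholesterol and phospholipid onto lipid-poor apolipoproteins, and is known to be induced when sterols accumulate. It was somewhat lower in Vldlr-/- RPE-like cells at 2 months, with 85.0 CPM (78.7 to 91.6) from 673 UMIs, against 104 CPM (99.2 to 110) from 1511 UMIs in WT. The log2 ratio was -0.30 (-0.43 to -0.16). At 1 month 13 UMIs gave 40.4 CPM in Vldlr-/- and 27 UMIs gave 52.4 CPM in WT, a ratio of -0.35 (-1.45 to 0.63), whose interval spans 0. After thinning to 1000 UMIs per barcode, 45 of 544 Vldlr-/- and 144 of 1309 WT RPE-like barcodes held an Abca1 UMI at 2 months, and 47.3% in Vldlr-/- and 52.5% in WT did before thinning. By cluster, the ratio was -0.64 in cluster 2, with 42.4 CPM in Vldlr-/- and 66.4 CPM in WT, while cluster 5 had 114 CPM in Vldlr-/- and 117 CPM in WT.

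Stromal cells of the 1-month libraries had larger Abca1 differences than RPE-like cells, short of 2-fold by class. Fibroblast-like cells held 95.2 CPM (83.2 to 108) in Vldlr-/- and 170 CPM (152 to 190) in WT, a ratio of -0.84 (-1.09 to -0.59), and the ratio was -0.85 without barcodes that held a macrophage marker. Within the class, cluster 23 held 84.7 CPM from 53 UMIs in Vldlr-/- (58 barcodes) and 225 CPM from 57 UMIs in WT (28 barcodes). Its ratio was -1.41 (-1.98 to -0.84). The WT barcodes were too few to compare, so this is not a 2-fold call. Cluster 4 held 98.2 CPM in Vldlr-/- and 161 CPM in WT, a ratio of -0.71. The cluster led by Hhip and Tspan11, which carried 9 of 10 fibroblast markers at low depth, held 96.6 CPM in Vldlr-/- and 164 CPM in WT. At 2 months fibroblast-like cells stood at 142 CPM in Vldlr-/- and 147 CPM in WT, a ratio of -0.05 with an interval that spans 0. Macrophage-like cells had the highest Abca1 level at 2 months, 236 CPM (201 to 276) in Vldlr-/- and 271 CPM (225 to 325) in WT. B cell-like cells had 73.3 CPM in Vldlr-/- and 49.2 CPM in WT at 1 month, a ratio of 0.57 (0.15 to 1.01). Endothelial-like cells had 90.4 CPM in Vldlr-/- and 72.2 CPM in WT.

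Abcg1 (ENSMUSG00000024030, chromosome 17, 31057675 to 31117988, plus strand), the transporter that passes cholesterol to mature high density lipoprotein, was all but missing from the RPE-like counts. It had 0 UMIs in Vldlr-/- and 1 in WT at 1 month, and 1 in Vldlr-/- and 4 in WT at 2 months, where free RNA alone would give 1.49 UMIs in Vldlr-/- and 4.49 in WT. These counts are at background. The 0 of 148 Vldlr-/- barcodes at 1 month allow a share of up to 2.03% with a UMI. Its molecules came from other cells. Rod-like cells held 106 CPM in Vldlr-/- and 91.9 CPM in WT at 1 month, endothelial-like cells 73.7 CPM in Vldlr-/- and 71.1 CPM in WT at 2 months, and T cell-like cells 48.4 CPM in Vldlr-/- and 58.0 CPM in WT. Macrophage-like cells held 42.3 CPM in Vldlr-/- and 43.3 CPM in WT at 2 months. Fibroblast-like cells stayed at or under 4.13 CPM in all 4 libraries. No class compared had Abcg1 2-fold apart.

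Scarb1 (ENSMUSG00000037936, chromosome 5, 125277087 to 125341094, minus strand) encodes scavenger receptor B1, which takes cholesterol ester from high density lipoprotein and carries carotenoids. In RPE-like cells at 2 months it stood at 66.5 CPM (61.0 to 72.5) in Vldlr-/- and 65.6 CPM (61.5 to 69.9) in WT, with a log2 ratio of 0.02 (-0.14 to 0.18). At 1 month 13 UMIs gave 40.4 CPM in Vldlr-/- and 30 UMIs gave 58.2 CPM in WT, with overlapping intervals. Endothelial-like cells had the highest level at 2 months, 254 CPM in Vldlr-/- and 196 CPM in WT, a ratio of 0.37 (0.12 to 0.64). Rod-like cells held 148 CPM in Vldlr-/- and 99.4 CPM in WT at 1 month, a ratio of 0.56 (0.09 to 1.10). The class joined cluster 6, with 286 barcodes in Vldlr-/- and 59 in WT, and cluster 16, with 59 in Vldlr-/- and 43 in WT. The part of this mix in the rod-like ratio was not tested. The Chil3 and Cd300e cluster held 115 CPM in Vldlr-/- and 130 CPM in WT. Macrophage-like cells, by contrast, had 15 Scarb1 UMIs in Vldlr-/- and 8 in WT at 2 months. The shallow rod-marker cluster led by Mir124a-1hg held 209 CPM in Vldlr-/- and 147 CPM in WT. None of the members compared was 2-fold apart in rod-like cells (6.22% of genes were), in the Hhip and Tspan11 cluster (4.85%), in the Mir124a-1hg cluster (7.47%), in B cell-like cells (2.32%) or in mural-like cells (4.89%).

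Cd36 (ENSMUSG00000002944, chromosome 5, 17781690 to 17888801, minus strand) encodes a scavenger receptor for fatty acids and oxidized lipoproteins, described in rat RPE as taking part in outer segment uptake. RPE-like cells here held 0 UMIs in both 1-month libraries, and 10 UMIs in Vldlr-/- and 5 in WT at 2 months. Free RNA alone would give 3.03 UMIs in Vldlr-/- and 5.68 in WT, so the WT count was at background and the Vldlr-/- count above it, on 9 barcodes. A count of 0 allows at most 9.32 CPM in Vldlr-/- and 5.82 CPM in WT at 1 month. Macrophage-like cells at 2 months held 804 CPM (738 to 874) from 551 UMIs in Vldlr-/- and 458 CPM (397 to 526) from 201 UMIs in WT, a log2 ratio of 0.81 (0.57 to 1.05). Of their barcodes, 76.4% (63.0 to 86.8) in Vldlr-/- and 59.6% (45.8 to 72.4) in WT had a Cd36 UMI, at median depths of 10723 UMIs in Vldlr-/- and 6278 in WT. At 1000 UMIs per barcode the shares were 41.8% in Vldlr-/- and 36.7% in WT, with overlapping intervals. At 1 month the levels ran the other way, 106 CPM from 14 UMIs of 34 Vldlr-/- barcodes and 642 CPM from 64 UMIs of 29 WT barcodes, a pair too small to compare. The Chil3 and Cd300e cluster held most of the 1-month Cd36, 92.6% of the Vldlr-/- and 77.6% of the WT library's UMIs. It stood at 490 CPM in Vldlr-/- and 413 CPM in WT, a ratio of 0.25 (0.08 to 0.42). In endothelial-like cells, a site of fatty acid passage, Cd36 came from a handful of barcodes: 44 of 48 UMIs in Vldlr-/- and 39 of 40 in WT lay in 5 barcodes of each.

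Lpl (ENSMUSG00000015568, chromosome 8, 68880491 to 68907448, plus strand) encodes lipoprotein lipase, which frees fatty acids from triglyceride-rich lipoproteins at the vessel wall and is known to act together with the VLDL receptor. Mural-like cells held a steady level at 2 months, 115 CPM (87.7 to 149) in Vldlr-/- and 103 CPM (79.0 to 131) in WT. Endothelial-like cells held 21.4 CPM from 32 UMIs in Vldlr-/- and 51.7 CPM from 48 UMIs in WT, a log2 ratio of -1.26 (-1.96 to -0.60), where 5.2% of genes were 2-fold apart. Mural markers in those barcodes also summed lower, 2451 CPM in Vldlr-/- and 4120 CPM in WT, and their part in the difference was not tested. At 1000 UMIs per barcode the endothelial-like ratio turned to 2.74, and the mean over barcodes gave -0.58. Fibroblast-like cells at 1 month held 17.9 CPM from 43 UMIs in Vldlr-/- and 8.52 CPM from 16 UMIs in WT, a ratio of 1.04 (0.21 to 2.00). Of these, 30 of 43 in Vldlr-/- and 12 of 16 in WT came from 5 barcodes of each library, the mean over barcodes gave a ratio of -0.44, and thinning to 1000 UMIs gave -1.77. Cluster 23 held 38 of the 43 Vldlr-/- and 11 of the 16 WT UMIs, and the ratio was 0.44 within it and -0.10 within cluster 4, so the 2-fold call held in neither. With 28 WT barcodes, cluster 23 was under the limit of 30. Macrophage-like cells held 84.6 CPM in Vldlr-/- and 125 CPM in WT at 2 months, a ratio of -0.57 (-1.13 to -0.01). In RPE-like cells all 37 Vldlr-/- UMIs of the 2-month library lay in 5 of 588 barcodes, and 47 of 59 in WT lay in 5 of 1349. A single Vldlr-/- barcode held 19 and a single WT barcode 26. An Lpl UMI was found in 0.850% of Vldlr-/- and 0.964% of WT RPE-like barcodes.

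Apob (ENSMUSG00000020609, chromosome 12, 7977648 to 8016835, plus strand), the scaffold protein of triglyceride-rich lipoproteins, was not detected in 3 of the libraries and gave 2 UMIs in the fourth, both in RPE-like cells of the 2-month WT library. With 0 UMIs, the limit over all barcodes analysed is 0.284 CPM in Vldlr-/- and 0.291 CPM in WT at 1 month, and 0.201 CPM in Vldlr-/- at 2 months. In RPE-like cells of the 2-month libraries the limit was 0.379 CPM in Vldlr-/-, against a level of 0.138 CPM (0.0167 to 0.499) in WT, so no difference was detectable at this depth. Mttp (ENSMUSG00000028158, chromosome 3, 138089854 to 138144968, minus strand), the transfer protein that loads lipid onto apolipoprotein B, was counted where its partner was not. RPE-like cells at 2 months held 15.4 CPM (12.8 to 18.4) from 122 UMIs in Vldlr-/- and 14.0 CPM (12.1 to 16.0) from 202 UMIs in WT, a log2 ratio of 0.15 (-0.19 to 0.47). They supplied 66.7% of the Vldlr-/- and 72.9% of the WT library's Mttp UMIs. At 1 month there were 5 UMIs in Vldlr-/- and 2 in WT RPE-like cells. Fibroblast-like cells at 1 month held 20.4 CPM in Vldlr-/- and 12.2 CPM in WT, a ratio of 0.72 (-0.01 to 1.52), and rod-like cells 26.4 CPM in Vldlr-/- and 39.7 CPM in WT, also with an interval that spans 0.

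Plin2 (ENSMUSG00000028494, chromosome 4, 86648386 to 86670060, minus strand) encodes perilipin 2, a coat protein of lipid droplets whose RNA is known to follow fatty acid supply. In RPE-like cells it did not differ beyond counting error at 2 months, with 106 CPM (99.01 to 113) from 840 UMIs in Vldlr-/- and 103 CPM (98.0 to 109) from 1494 UMIs in WT, a log2 ratio of 0.04 (-0.08 to 0.16). At 1 month 34 UMIs gave 106 CPM (73.1 to 148) in Vldlr-/- and 79 UMIs gave 153 CPM (121 to 191) in WT, a ratio of -0.52 (-1.16 to 0.06). Clusters 1 and 2 were level between genotypes at 2 months, at 118 CPM in Vldlr-/- and 117 CPM in WT for cluster 1, and 106 CPM in Vldlr-/- and 105 CPM in WT for cluster 2. The 2 clusters that differed did so in opposite directions, cluster 5 with 72.3 CPM in Vldlr-/- and 104 CPM in WT, and cluster 10 with 108 CPM in Vldlr-/- and 83.1 CPM in WT.

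Outside the RPE, Plin2 was higher in the Vldlr-/- library in the stromal and myeloid pairs chosen for the plot of Plin2 by class. The plot leaves out the Hhip and Tspan11 cluster at 1 month, which was level between genotypes. That cluster held 33.4 CPM from 19 UMIs in Vldlr-/- and 31.5 CPM from 15 UMIs in WT, a log2 ratio of 0.08 (-0.97 to 1.17). Also left out are the 1-month macrophage-like cells given below, where the Vldlr-/- level was the lower. Endothelial-like cells at 2 months held 48.9 CPM (38.3 to 61.5) from 73 UMIs in Vldlr-/- and 20.5 CPM (12.3 to 32.0) from 19 UMIs in WT, a log2 ratio of 1.23 (0.51 to 2.07). Without barcodes holding a macrophage marker 30 UMIs in Vldlr-/- and 5 in WT gave a ratio of 1.89, but fibroblast markers in the class also summed higher, 1254 CPM in Vldlr-/- and 534 CPM in WT, and their part was not tested. Fibroblast-like cells at 2 months held 60.9 CPM (50.4 to 72.9) from 118 UMIs in Vldlr-/- and 29.7 CPM (21.2 to 40.5) from 40 UMIs in WT, a ratio of 1.02 (0.51 to 1.59), where 3.83% of genes were 2-fold apart. Without barcodes holding a macrophage marker the levels were 34.9 CPM in Vldlr-/- and 18.4 CPM in WT, a ratio of 0.90. At 1 month the same class held 42.0 CPM in Vldlr-/- and 26.6 CPM in WT, a ratio of 0.65 (0.15 to 1.18).

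Myeloid cells had the highest Plin2 levels. Macrophage-like cells at 2 months held 384 CPM (339 to 433) in Vldlr-/- and 276 CPM (229 to 330) in WT, a ratio of 0.47 (0.16 to 0.80). A Plin2 UMI was found in 81.8% of these barcodes in Vldlr-/- and 57.9% in WT, and in 13 of 55 Vldlr-/- and 5 of 49 WT barcodes at 1000 UMIs per barcode. The median barcode held 294 CPM in Vldlr-/- and 109 CPM in WT. Median depths were 10723 UMIs in Vldlr-/- and 6278 in WT, and their part in these medians was not tested. At 1 month the levels were 401 CPM in Vldlr-/- (34 barcodes) and 461 CPM in WT (29 barcodes), with overlapping intervals. The Chil3 and Cd300e cluster at 1 month held 348 CPM in Vldlr-/- and 268 CPM in WT, a ratio of 0.38 (0.17 to 0.58). T cell-like cells were 2-fold apart on few molecules, 12.7 CPM from 21 UMIs in Vldlr-/- and 5.72 CPM from 14 UMIs in WT, where 2.64% of genes were. Of the 21, 12 lay in 5 barcodes, and the mean over barcodes gave -0.11.

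**Figure D4:**
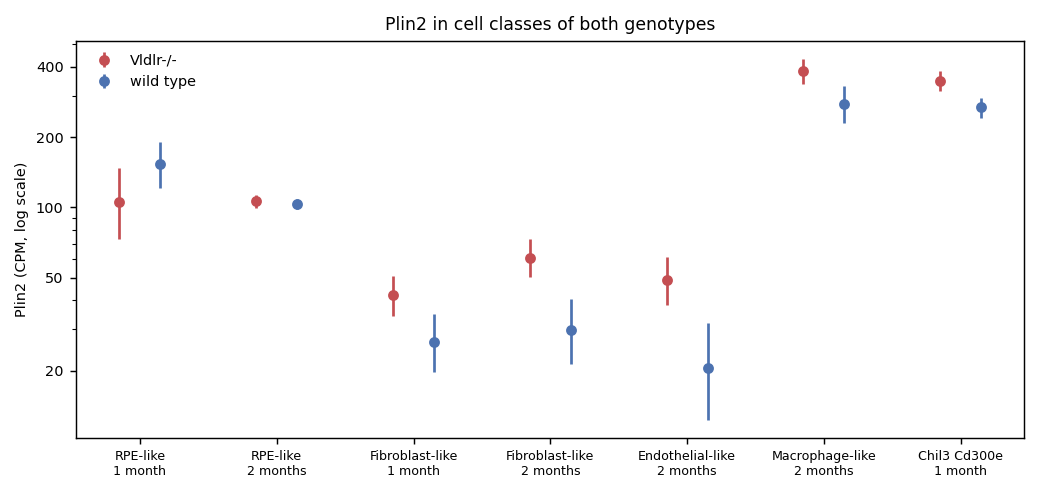
Plin2 level (CPM, log scale) in 7 comparisons of a cell class at 1 age, Vldlr-/- left and WT right in each. Bars are 95% Poisson intervals of single libraries. The Vldlr-/- level was the higher in all fibroblast-like, endothelial-like and myeloid pairs drawn. The Hhip and Tspan11 cluster and the macrophage-like cells at 1 month, where this did not hold, were not drawn. The RPE-like pairs were 106 CPM in Vldlr-/- and 153 CPM in WT at 1 month, and 106 CPM in Vldlr-/- and 103 CPM in WT at 2 months.

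Fabp5 (ENSMUSG00000027533, chromosome 3, 10012548 to 10016607, plus strand) encodes a cytosolic fatty acid binding protein of epidermis and macrophages. Processed copies of this gene are known in the mouse genome, and what reads shared with them add or lose was not tested. It was the only member 2-fold apart in RPE-like cells, on few molecules: 31 UMIs (3.91 CPM, 2.66 to 5.56) in 29 Vldlr-/- barcodes and 7 UMIs (0.484 CPM, 0.194 to 0.996) in 7 WT barcodes at 2 months. The log2 ratio was 2.94 (1.81 to 4.45). Free RNA alone would give 0.826 CPM in Vldlr-/- and 0.634 CPM in WT, so the Vldlr-/- level was above that estimate and the WT level below it, and the whole Vldlr-/- library held 92.9 CPM against 21.4 CPM in WT. A Fabp5 UMI was found in 4.93% of Vldlr-/- and 0.519% of WT barcodes, and in 1.65% of Vldlr-/- and 0.229% of WT barcodes at 1000 UMIs per barcode. Macrophage markers in RPE-like cells summed alike, 183 CPM in Vldlr-/- and 179 CPM in WT. In barcodes without them, 3 UMIs (3.32 CPM) in Vldlr-/- and 4 UMIs (1.53 CPM) in WT remained. By cluster, the Vldlr-/- level was above the WT level in all 5 clusters, from 1 to 9 Vldlr-/- UMIs in each, and in cluster 5 from 1 UMI in Vldlr-/- and 2 in WT. At 1 month both libraries had 0 UMIs in RPE-like cells.

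Macrophage-like cells were the main source of Fabp5, giving 76.7% of the Vldlr-/- and 64.4% of the WT library's UMIs at 2 months. They held 1548 CPM (1456 to 1644) from 1061 UMIs in Vldlr-/- and 684 CPM (609 to 766) from 300 UMIs in WT, a log2 ratio of 1.18 (0.99 to 1.37), where 7.09% of genes were 2-fold apart. The molecules were unevenly spread. In WT 286 of 300 lay in 5 of 57 barcodes, and in Vldlr-/- 522 of 1061 lay in 5 of 55. A Fabp5 UMI was found in 49.1% (35.4 to 62.9) of Vldlr-/- and 22.8% (12.7 to 35.8) of WT barcodes, and in 32.7% (20.7 to 46.7) of Vldlr-/- and 14.3% (5.94 to 27.2) of WT barcodes at 1000 UMIs per barcode, where the intervals overlap. The macrophage markers summed to 28469 CPM in Vldlr-/- and 24287 CPM in WT, and the RPE markers in the same barcodes to 708 CPM in Vldlr-/- and 4520 CPM in WT. The part of these in the ratio was not tested. At 1 month the levels were 2378 CPM in Vldlr-/- (34 barcodes) and 461 CPM in WT (29 barcodes).

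**Figure D5:**
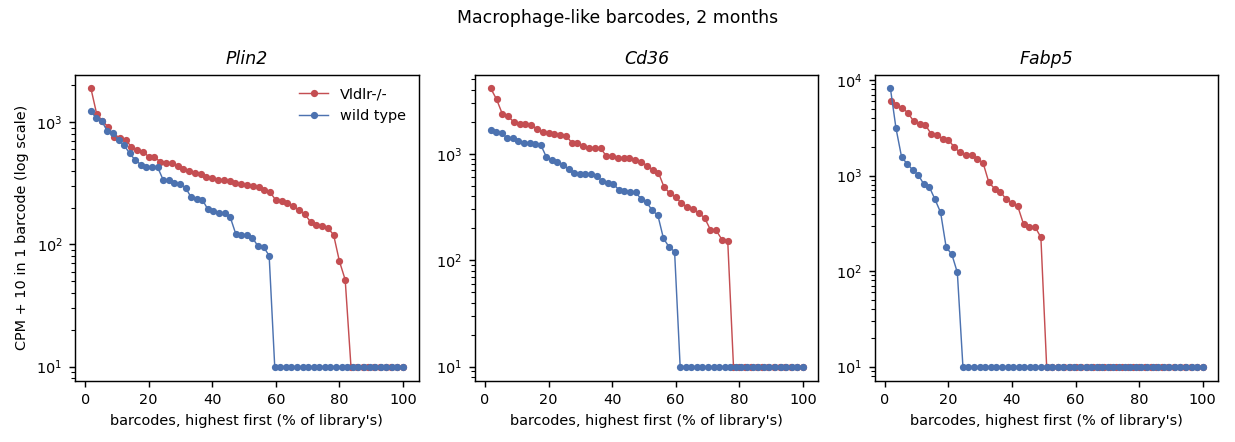
Level in each macrophage-like barcode at 2 months (CPM + 10, log scale) against its rank from the highest, as % of the library's barcodes, for Plin2, Cd36 and Fabp5, with 55 Vldlr-/- and 57 WT barcodes. Points at 10 are barcodes with 0 UMIs. For Fabp5 the Vldlr-/- curve reaches 49.1% of barcodes and the WT curve 22.8%.

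Fabp5 differed the other way in the Chil3 and Cd300e cluster at 1 month, with 28.0 CPM from 31 UMIs in Vldlr-/- and 65.3 CPM from 97 UMIs in WT, a log2 ratio of -1.20 (-1.85 to -0.62), where 3.41% of genes were 2-fold apart. Of the 97 WT UMIs 54 lay in 5 barcodes, while a UMI was found in 20.2% of Vldlr-/- and 23.1% of WT barcodes. Fibroblast-like cells held 29.5 CPM in Vldlr-/- and 46.3 CPM in WT at 1 month, a ratio of -0.65 (-1.12 to -0.18). At 2 months they held 108 CPM in Vldlr-/- and 56.5 CPM in WT, a ratio of 0.93 (0.55 to 1.34), with 151 of the 210 Vldlr-/- UMIs in 5 barcodes. The macrophage markers given with Apoe above had the same directions. Without barcodes holding such a marker the ratio was -0.72 at 1 month, as large as with them, and at 2 months 0.47, from 75.7 CPM in Vldlr-/- and 54.3 CPM in WT. Endothelial-like cells held 18.1 CPM in Vldlr-/- and 22.6 CPM in WT, on 27 UMIs in Vldlr-/- and 21 in WT.

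Over the 33 profiles of a class in a library with at least 30 barcodes, the members fell into patterns that were described by Pearson's r of log2(CPM + 10). Profiles share libraries, depths and cell types, so r is a description. Apoe and Plin2 had r = 0.81, Plin2 and Cd36 0.70, Lpl and Cd36 0.69, and Cd36 and Fabp5 0.68, all being high in macrophage-like cells at 2 months. Mural-like cells were high in Lpl too, with 115 CPM in Vldlr-/- and 103 CPM in WT. The Chil3 and Cd300e cluster was not high in Fabp5, with 28.0 CPM in Vldlr-/- and 65.3 CPM in WT. Abca1 and Abcg1, transporters in the same efflux route, had r = -0.46. RPE-like and fibroblast-like cells held Abca1, with Abcg1 at or under 4.13 CPM. Rod-like and T cell-like cells held Abcg1 and were low in Abca1. Rod-like cells had 17.6 CPM of Abca1 in Vldlr-/- and 19.9 CPM in WT at 1 month. T cell-like cells had 8.47 CPM in Vldlr-/- and 8.17 CPM in WT. Endothelial-like, macrophage-like and B cell-like cells held both genes. The genes of the whole table most like Apoe were Gm1673 (0.92), Renbp (0.91) and Hexa (0.89), the last a lysosomal enzyme. Csf1r (0.92), the receptor of macrophage colony-stimulating factor, Psap (0.92) and Gm1673 (0.91) were most like Plin2. Cd36 had the closest matches, the myeloid genes Slc15a3 (0.97), Csf2rb (0.96) and Csf3r (0.95). Fabp5 was nearest to Ang (0.92), Pla2g15 (0.89) and Slc40a1 (0.89), Lpl to Rab31 (0.84), Specc1 (0.83) and Alpk1 (0.82). Abca1 was nearest to Rgl1 (0.86), Tmcc3 (0.83) and Lhfpl2 (0.80), Abcg1 to Atp2b1 (0.84), Faim (0.83) and Prdm1 (0.83). Scarb1 was nearest to Tbc1d8 (0.83), Ctbp2 (0.80) and Rps6ka2 (0.76), Mttp to Zcchc3 (0.89), A430033K04Rik (0.89) and Ntn3 (0.88).

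Other genes of lipid handling in RPE-like cells were read from 9 role lists, beside a median log2 ratio over all genes of 0.01 at 1 month and 0.07 at 2 months. The list medians shift with the minimum of UMIs. At 100 UMIs per gene 8 of them moved and 9 did not, by the limit given in the closing section. Of all genes compared, 50.9% were higher in Vldlr-/- at 1 month and 60.2% at 2 months, and the shares 2-fold apart were the 6.07% and 4.1% given above, so counts near these shares are not particular to a list. Of 26 receptor and uptake genes 11 had enough UMIs at 1 month, with 9 higher and 2 lower in Vldlr-/- and a median of 0.49. At 2 months 18 had enough, with 6 higher and 12 lower and a median of -0.12. Vldlr was the only one of them 2-fold apart at both ages. Lrp1, a large endocytic receptor that binds apolipoprotein E, held 478 CPM in Vldlr-/- and 353 CPM in WT at 1 month, and 567 CPM in Vldlr-/- and 679 CPM in WT at 2 months, opposite in direction. Sorl1, a sorting receptor, held 255 CPM in Vldlr-/- and 145 CPM in WT at 1 month, and 274 CPM in Vldlr-/- and 242 CPM in WT at 2 months. Mfsd2a, a transporter of lysophospholipids that carry docosahexaenoic acid, named after its values were seen, was 2-fold apart at 1 month alone, with 29 UMIs (90.1 CPM) in Vldlr-/- and 10 UMIs (19.4 CPM) in WT.

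Of 20 efflux and sterol transport genes 13 had enough UMIs at 2 months, 9 higher and 4 lower in Vldlr-/-, with a median of 0.11 and none 2-fold apart. Beside them, 60.2% of all genes were higher and 4.1% 2-fold apart. Pltp, which moves phospholipid between lipoproteins, held 893 CPM in Vldlr-/- and 1030 CPM in WT, and Npc2, a lysosomal cholesterol carrier, 561 CPM in Vldlr-/- and 578 CPM in WT. Of 12 assembly genes 10 were compared, 4 higher and 6 lower, with a median of -0.01. Pdia3 and Dnajc3, chaperones of the endoplasmic reticulum, had log2 ratios of 0.12 and -0.02. Of 12 apolipoproteins 5 were compared, with a median of 0.09. Clu held 5085 CPM in Vldlr-/- and 4787 CPM in WT, and Apoc3, an inhibitor of lipoprotein lipase, 6.06 CPM from 48 UMIs in Vldlr-/- and 4.21 CPM from 61 UMIs in WT.

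Of 15 lipases and partners 9 were compared at 2 months, with a median of 0.15 and none 2-fold apart, against 4.1% of all genes. Lipa, the lysosomal acid lipase that frees cholesterol from engulfed lipid, was lower with 59.1 CPM in Vldlr-/- and 94.4 CPM in WT, a log2 ratio of -0.67 (-0.83 to -0.52), and at 1 month the ratio was -0.23 (-1.09 to 0.55). Mgll, which cleaves monoacylglycerol, held 659 CPM in Vldlr-/- and 596 CPM in WT. Of 22 droplet genes 16 were compared, 10 higher and 6 lower, with a median of 0.08, none 2-fold apart, where 60.2% of all genes were higher. The acyl-CoA synthetases Acsl6 and Acsl3 had ratios of 0.23 and 0.07. Among 12 binding proteins 3 were compared. Dbi, which binds acyl-CoA, was higher at both ages, with 2063 CPM in Vldlr-/- and 1598 CPM in WT at 1 month, and 1578 CPM in Vldlr-/- and 1207 CPM in WT at 2 months.

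All 15 nuclear receptor genes and partners were compared at 2 months, 11 higher and 4 lower in Vldlr-/-, with a median of 0.15 and none 2-fold apart. Over all genes, 60.2% were higher and 4.1% 2-fold apart. The coregulators Ncoa1 and Ncor1 had log2 ratios of 0.19 and 0.02. Of 21 genes that are textbook targets of such receptors 17 were compared, 8 higher and 9 lower, with a median of -0.05. The only target 2-fold apart at 2 months was Scd1, a desaturase, with 393 UMIs in Vldlr-/- and 106 in WT. At 1 month Lpcat3 (24 UMIs in Vldlr-/- and 17 in WT) and Acadm (16 UMIs in Vldlr-/- and 59 in WT) were, on few molecules. These 3 were named after their values were seen.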

How the data were processed

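The authors deposited raw UMI counts per gene and barcode, with no normalization, per the file headers, which name Cell Ranger 6.0.2 at 1 month and 7.0.1 at 2 months. By contrast, Cell Ranger 3.0, Seurat 4.0 and mm9 appear in the submitters' processing notes. Counting of introns: not given in the sources used here. RPE and choroid were scraped off after removal of the retina, digested with enzymes and freed of dead cells, per the labels' protocols. Gene coordinates came from GENCODE M21 on GRCm38 (32158 of 32285 identifiers matched), upstream sequences from RefSeq (GRCm38.p6).

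Filters of 300 genes or more and 30% mitochondrial UMIs or less kept 1819 of 2073 (Vldlr-/-) and 1549 of 1696 (WT) at 1 month, 1140 of 1634 (Vldlr-/-) and 2047 of 2540 (WT) at 2 months. Scrublet marked 26 of 6555 (0.397%), too few to count as having worked, and these were removed. After scaling to 10000 per barcode, 2000 variable genes, 30 components and 15 neighbours gave 30 Leiden clusters at resolution 1.0 (scanpy 1.11.5, leidenalg 0.10.2, igraph 0.11.9, scikit-learn 1.9.0). Clusters were named "X-like" from marker lists, or by leading genes where these went against the list. Counts were summed per class and library and scaled to CPM, and log2 ratios used 0.5 added counts. The free RNA share of a class was estimated from RPE genes in it, or from rod genes in pigmented classes, as an upper estimate, and its make-up from the library's total. The role-list genes named are those 2-fold apart at both ages and the 2 others per list with the most UMIs, some of which are not reported here. The likeness ranking took members with at least 100 UMIs. The members and lists were chosen with earlier results of these data known. The calculation was tested on simulated counts. Sums and intervals used scipy 1.17.1 and numpy 2.4.6, tables pandas 2.3.3 and plots matplotlib 3.10.9, under Python 3.11.15. The alternatives are named in the closing section.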

Additional observations from a re-analysis of the deposited data

Results flagged for a closer look

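The Vldlr-/- to WT ratio of 2 members in fibroblast-like cells had opposite signs at the 2 ages, and the difference between the ages was not tested. For Apoe the log2 ratio was -1.03 at 1 month and 0.59 at 2 months. For Fabp5 it was -0.65 at 1 month and 0.93 at 2 months. Different clusters made up the class at the 2 ages. Without barcodes holding a macrophage marker, the Apoe ratio was -0.83 at 1 month and -0.02 at 2 months. The Fabp5 ratio was then -0.725 at 1 month and 0.47 at 2 months.

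Some classes with too few barcodes to compare held a level at least 2-fold above that of every compared class of their library. Macrophage-like cells of the 1-month WT library (29 barcodes) held 41776 CPM of Apoe and 461 CPM of Fabp5. Lpl stood at 620 CPM in dendritic-like cells of the 2-month Vldlr-/- library (7 barcodes, with all 83 UMIs in 1 of them) and at 274 CPM in those of the 1-month WT library (24 barcodes). It stood at 338 CPM in mural-like cells of the 1-month WT library (20 barcodes) and at 343 CPM in the cluster led by Syt4 and Cck of the 2-month WT library (18 barcodes).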

How the results depend on the processing

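No paired analysis was possible because each group is 1 library. The count of members 2-fold apart in RPE-like cells at 1 month, 0, became 1 (Abca1) with the mean of per-barcode CPM and 2 (Mttp, Lpl) with no minimum of UMIs. At 2 months the count of 1 (Fabp5) became 0 at 1000 genes per barcode, at 1000 UMIs per barcode, on either side of the Malat1 limit of 1000 CPM, without cluster 0 and without barcodes holding a macrophage marker, since Fabp5 then had under 30 UMIs; its log2 ratio was 2.95 under that Malat1 limit, with 10 UMIs in Vldlr-/- and 0 in WT over it. It was 2.71 to 3.08 under 10 other alternatives, and 6.48 with free RNA subtracted, which depends on the added count because WT was then at 0. The count became 3 (Apob, Cd36, Fabp5) with no minimum and 2 (Lpl, Fabp5) with classes taken from marker UMIs alone, and in cluster 0 alone the 1 was Apoe. In the other classes the 8 calls became 4 at 1000 UMIs per barcode and 20 with no minimum, and were 6 to 11 under the other alternatives. The direction turned for Lpl in fibroblast-like cells at 1 month (-1.77 at 1000 UMIs per barcode, -0.44 with the mean over barcodes), for Lpl in endothelial-like cells (2.74 at 1000 UMIs per barcode) and for Plin2 in T cell-like cells (-0.11 with the mean over barcodes). The cause was not tested. Fabp5 in macrophage-like cells kept its call under all 11 alternatives (1.09 to 1.75), and Plin2 in endothelial-like cells under 11 of 12 (0.31 to 1.89). Plin2 in fibroblast-like cells at 2 months kept it under 8 of 13 (0.47 to 1.11), as did Apoe at 1 month (-1.07 to -0.48). The alternatives on macrophage markers, cluster 0 and the clusters led by Pmel and Hhip were chosen after seeing the data. Of the ratios under alternatives, 712 stayed within their counting error of the reported value, 97 moved and 4 turned. Of the role-list medians in RPE-like cells, 8 moved by at least 0.1 log2 and 9 did not at a minimum of 100 UMIs per gene. No other scaling moved the median of all genes by 0.1 log2. At 1 month RPE-like depth left 4 members to compare.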
